A study of Mus musculus with 24 samples.

Results

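The circadian clock genes described here are 10 genes of the daily oscillator and its outputs in mouse liver: Arntl (also called Bmal1), Clock, Npas2, Per1, Per2, Per3, Cry1, Nr1d1 (Rev-erb alpha), Dbp and Nfil3 (E4bp4). They were chosen by name, and each was found as 1 row among the 22392 genes of the deposited table through its Ensembl identifier and GENCODE M21. Liver RNA was sequenced from CD2F1 mice in 3 groups of 8. C26-CHO mice carried the transplanted C26 tumour, a colon carcinoma that causes wasting, and ate a diet with 2% cholestyramine by weight from day 1 to day 10 after the cells were injected. Cholestyramine is taken by mouth, stays in the intestine and holds bile acids back from uptake. C26 mice carried the same tumour without the resin, and CT mice were sham-injected. Each library came from 1 mouse, and the labels give no age, sex, tumour size or batch. They also give no time of day and no feeding state at the taking of the livers. With 1 liver per mouse, a change in the level of a rhythmic gene and a shift of its daily phase cannot be told apart.

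In the liver clock, the proteins of Arntl and Clock, or of Arntl and Npas2, pair up and activate genes through E-box sequences. Among their targets are the Per and Cry genes, whose proteins return to block the pair, and Nr1d1, whose protein represses Arntl, Npas2 and Nfil3 through a sequence called the RORE. Dbp is a further E-box target and activates genes through the D-box, while Nfil3 competes for the D-box as a repressor. Because of these links Arntl and Dbp normally peak at opposite times of day, and many metabolic genes of hepatocytes follow them.

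Library depth ranged from 20.8 to 30.5 times 1e6 reads in C26-CHO, from 19.9 to 29.1 in C26 and from 20.7 to 24.1 in CT. On the first principal component of 14040 tested genes, which held 71.8% of the variance, C26-CHO 1 lay at -13.4, between the CT livers (-83.2 to -75.4) and the C26 livers (28.8 to 54.6). C26-CHO 7, at 22.3, also lay between them, nearer to the C26 livers. Values of the named genes that change sign, lose their call or move by over 1.5 times without C26-CHO 1 are given both ways. Several clock genes also separated the low-numbered from the high-numbered mice of a group, among them Arntl, Per2 and Per3 in C26 (1 to 4 against 5 to 8) and Nr1d1 in C26-CHO (1 to 4 against 5 to 8) and in CT (1 to 5 against 6 to 8). The labels do not say what the numbers stand for, and an order of sampling cannot be told apart from other differences between these mice. The summed level of 8 hepatocyte markers ran from 844477 to 1037980 in C26-CHO and from 789079 to 1023640 in C26, against 1653700 to 1902070 in CT. The summed level of 8 macrophage and neutrophil markers ran from 4592 to 8318 in C26-CHO and from 4980 to 6278 in C26, against 3378 to 5001 in CT. In C26 vs CT 33.3% of all tested genes were called higher and 32.9% lower, and the marker counts are to be read beside these shares. Of the hepatocyte markers 2 rose and 4 fell in this comparison, and of the macrophage and neutrophil markers 5 rose and 0 fell. Of 5 bile duct markers 2 rose, and their sum ran from 2164 to 9449 in C26-CHO and from 5471 to 11391.5 in C26, against 311 to 473 in CT. Of 8 sinusoidal endothelial markers 7 rose and 0 fell, and of 8 stellate and fibroblast markers 2 rose and 1 fell. Of 8 lymphocyte markers 2 were tested and both fell, with a sum of 20.2 to 111 in C26-CHO and 14.9 to 46.9 in C26, against 35.4 to 130 in CT. Of 6 erythroid markers 5 were tested; 3 rose and 1 fell. Single genes weighed heavily in some sums. Alb ran from 202498 to 346784 in C26, against 916952 to 1141830 in CT. Hnf4a, another hepatocyte marker, was higher in C26 (14590 to 17162) than in CT (10128 to 14522). Most of the bile duct sum was Spp1, at 4905 to 10600 in C26 against 216 to 373 in CT. The part of these shifts in the clock results was not tested. In whole liver a change in cell number, in RNA per cell and in single marker genes cannot be told apart.

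All 10 are protein-coding genes, given here by their GRCm38 coordinates in GENCODE M21. In the positive limb, Arntl lies at chr7:113207465-113314126 (plus strand), Clock at chr5:76209868-76304792 (minus) and Npas2 at chr1:39193731-39363236 (plus). The negative limb holds Per1 at chr11:69095217-69109960 (plus), Per2 at chr1:91415982-91459324 (minus), Per3 at chr4:151003652-151044665 (minus), Cry1 at chr10:85131700-85185064 (minus) and Nr1d1 at chr11:98767932-98775333 (minus). The D-box factors are Dbp at chr7:45705088-45710203 (plus) and Nfil3 at chr13:52967209-52981073 (minus).

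The members spanned a wide range of levels. Deposited values are counts divided by the size factor of the library. Divided further by the merged length of all annotated exons in kb, they allow a rough comparison between genes. The lengths of the transcripts expressed in these livers are not known. In CT livers Dbp was the highest, at 793 ± 178 per kb (SD, n = 8), followed by Nr1d1 at 433 ± 181 per kb. Per2 (197 ± 32.8), Per1 (179 ± 40.4), Nfil3 (173 ± 27.2) and Per3 (141 ± 24.1) came next on the same per kb scale, and the first 3 of these lay within 1 SD of each other. Cry1 had 61.5 ± 15.8 per kb, Clock 29.2 ± 5.49, Arntl 3.57 ± 0.888 and Npas2 0.571 ± 0.587. In C26 livers the order changed at the top: Nfil3 led with 569 ± 119 per kb, ahead of Nr1d1 at 236 ± 82.3, and Dbp stood at 113 ± 58.6, below Per1 (161 ± 27.6) and Per2 (120 ± 43.2) (SD, n = 8). In C26-CHO livers Nfil3 was likewise the highest, at 585 ± 61.2 per kb.

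The C26 vs CT comparison asks what the tumour did to the clock genes of the liver. Arntl, Clock and Nfil3 rose, and Dbp, Per3, Per2 and Nr1d1 fell. The largest changes were a log2 fold change of -3.03 in Dbp and a 5.64-fold higher Arntl, the pair that normally peaks in opposition. Of the 10 members 9 had a mean value of at least 10 and were tested with limma; 7 of them were called at an adjusted p under 0.05, 3 higher and 4 lower. Over all tested genes 66.3% were called, 33.3% higher and 32.9% lower, so the members' share lies close to that of the table as a whole. The C26 and CT values did not overlap in 5 of the 9 tested members, against 35.0% of all tested genes. Their median log2 fold change was -0.40, beside 0.0056 over all tested genes.

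**Figure D1:**
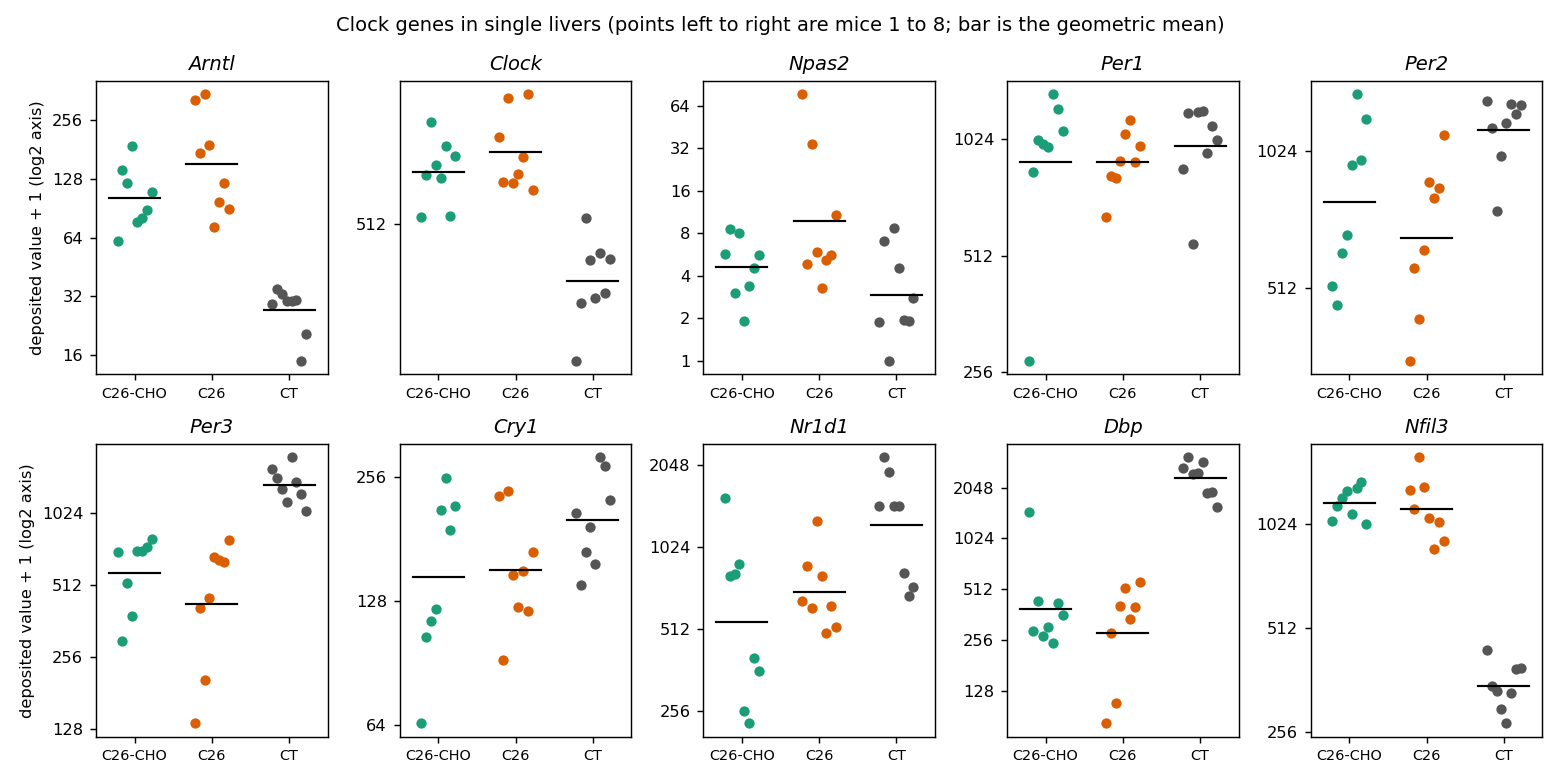
Deposited value plus 1 on a log2 axis for the 10 clock genes, 1 point per liver, in C26-CHO, C26 and CT mice (n = 8 each); the bar is the geometric mean. Arntl, Clock and Nfil3 lay above every CT liver in all C26 and C26-CHO livers, and Per3 and Dbp lay below every CT liver.

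The positive limb was higher in tumour-bearing mice. Arntl, the DNA-binding partner without which the clock stops, had a lowest, median and highest deposited value of 71.2, 147 and 348 in C26 livers, against 13.9, 29.2 and 33.6 in CT livers. Every C26 liver lay above every CT liver, and C26 1 and C26 3 were the highest, at 326 and 348. The level was 5.64-fold that of CT, with a 95% interval of the log2 fold change from 1.90 to 3.09 (SE 0.289, limma adjusted p = 3.14e-08). Clock, its usual partner, had 594, 664 and 916 in C26 livers, against 275, 404 and 525 in CT livers. Again no C26 liver reached down to the CT range, and the log2 fold change was 0.84 (SE 0.117, limma adjusted p = 7.16e-07).

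Npas2, the alternative partner of Arntl, was near the limit of detection. It had 2.30, 4.76 and 76.2 in C26 livers, against 0, 1.37 and 7.79 in CT livers. The C26 livers stood apart from each other: C26 1 had 88 reads and C26 3 had 28, the remaining C26 livers had 2 to 9 reads, and CT livers had 0 to 8. These are also the C26 livers with the highest Arntl. Npas2 did not reach the mean value of 10 and has no call; without that filter it had a log2 fold change of 1.72 (limma adjusted p = 0.00997), and 3 of 8 C26 livers lay above every CT liver.

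The promoters of the members were searched for the clock motifs on both strands, in windows of 300 bases from 250 before to 50 after each RefSeq start site on GRCm38.p6. A promoter was found for 9 of the 10 members, 13 windows in all. The motifs were the E-box CACGTG, the RORE core TAGGTCA and the D-box in the forms TTATGTAA and TTACGTAA, none of which overlaps another in these windows. Of 32851 such windows, 7.15% hold the E-box, 2.61% the RORE core, 0.938% the first D-box form and 0.119% the second. The RORE core stood in 1 window each of Arntl and Nfil3, both of which rose in C26, and the first D-box form stood in the Per3 window, which fell with Dbp. The windows of these 3 genes follow, written on the strand of the gene with the motif in capitals. They are shown because each carries a motif of a factor among the members; a match is a description of the letters and not a bound site.
Arntl, chr7:113207261-113207560, plus strand, RORE core at base 31 after the start site: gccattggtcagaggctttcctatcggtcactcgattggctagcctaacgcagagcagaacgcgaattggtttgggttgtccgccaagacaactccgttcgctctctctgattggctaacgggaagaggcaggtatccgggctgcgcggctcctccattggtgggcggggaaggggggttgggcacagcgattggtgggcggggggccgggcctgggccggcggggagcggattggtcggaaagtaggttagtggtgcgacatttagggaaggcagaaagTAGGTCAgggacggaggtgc
Nfil3, chr13:52980990-52981289, minus strand, RORE core on the opposite strand, first base 12 before the start site: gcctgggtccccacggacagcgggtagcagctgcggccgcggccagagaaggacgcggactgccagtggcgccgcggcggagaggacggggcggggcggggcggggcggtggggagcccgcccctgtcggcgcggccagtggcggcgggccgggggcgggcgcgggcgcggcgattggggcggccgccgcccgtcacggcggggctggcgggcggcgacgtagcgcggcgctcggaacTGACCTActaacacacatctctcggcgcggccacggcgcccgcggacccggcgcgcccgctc
Per3, chr4:151044616-151044915, minus strand, D-box at 205 and 158 bases before the start site: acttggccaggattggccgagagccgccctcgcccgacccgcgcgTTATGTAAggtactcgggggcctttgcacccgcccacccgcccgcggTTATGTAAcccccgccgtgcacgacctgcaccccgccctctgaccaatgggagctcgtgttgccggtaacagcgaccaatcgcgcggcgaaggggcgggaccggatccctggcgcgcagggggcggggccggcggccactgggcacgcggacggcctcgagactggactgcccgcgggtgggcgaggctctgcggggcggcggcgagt
An E-box stood in 1 window each of Cry1, 60 bases before the start site, and Per1, 166 bases before it. Neither gene passed the test in C26 vs CT. The windows searched for Npas2, Clock, Dbp and Nr1d1 held none of these letters.

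The negative limb split. Per3, the period gene with the largest change, had 134, 546 and 789 in C26 livers, against 1050, 1336 and 1762 in CT livers. No C26 liver reached the CT range, and C26 1 and C26 3 were the lowest of the C26 livers, at 134 and 204. The log2 fold change was -1.65 (SE 0.285, limma adjusted p = 1.53e-05). Per2, a core repressor of the Arntl and Clock pair, had 353, 714 and 1109 in C26 livers, against 755, 1204 and 1321 in CT livers. The groups overlapped, with 4 of 8 C26 livers below every CT liver, and Per2 fell with -0.78 (SE 0.224, limma adjusted p = 0.00331).

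Per1, which also answers acutely to glucocorticoids and other signals, had 644, 893 and 1146 in C26 livers, against 546, 1059 and 1209 in CT livers. The C26 range lay inside the CT range; the log2 fold change was -0.13, with a 95% interval from -0.60 to 0.33 (limma adjusted p = 0.615). Cry1, the repressor that acts late in the cycle, had 90.6, 149 and 235 in C26 livers, against 139, 201 and 285 in CT livers. The groups overlapped, and its log2 fold change of -0.40 did not pass, with an interval from -0.90 to 0.09 (limma adjusted p = 0.142).

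Nr1d1, the repressor that links the clock to lipid and bile acid metabolism, had 491, 633 and 1270 in C26 livers, against 672, 1442 and 2180 in CT livers. The CT livers fell into separate sets, with 1442 to 2180 in CT 1 to CT 5 and 672 to 817 in CT 6 to CT 8, and only the first of these lay above every C26 liver. Nr1d1 fell with -0.82 (SE 0.331, limma adjusted p = 0.0327). The call was lost when any of CT 1 to CT 5, or C26 3, C26 6 or C26 8, was left out, with adjusted p up to 0.073 and values from -0.79 to -0.70. Exons of Nr1d1 share 263 bases, 8.55% of their merged length, with Thra on the opposite strand, and the use of strand in counting is not given in the sources used here. Thra averaged 164 in C26 and 237 in CT, well below Nr1d1 itself at 727 and 1331.

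Dbp, the D-box activator and an output of the clock, had 81.4, 374 and 562 in C26 livers, against 1561, 2475 and 3101 in CT livers. The lowest CT liver was above the highest C26 liver, and C26 1 and C26 3 again stood lowest, at 81.4 and 108. Dbp fell to a level 0.122 times that of CT, a log2 fold change of -3.03 (SE 0.359, limma adjusted p = 4.56e-08). Its exons share 539 bases, 18.01% of their merged length, with Sphk2 on the opposite strand. The Sphk2 mean was higher in C26 (968) than in CT (502), opposite to Dbp. Dbp itself averaged 339 in C26, below Sphk2, and 2374 in CT. In C26-CHO the means were 901 for Sphk2 and 474 for Dbp. The share of Sphk2 reads in the Dbp counts was not tested.

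Nfil3, the D-box repressor, which cytokines also induce in immune cells, had 868, 1100 and 1603 in C26 livers, against 269, 340 and 440 in CT livers. Every C26 liver was above every CT liver. Nfil3 rose by 1.71 on the log2 scale (SE 0.109, limma adjusted p = 5.60e-13), the smallest p of the members. The D-box activator and the D-box repressor moved in opposite directions in the same livers.

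**Figure D2:**
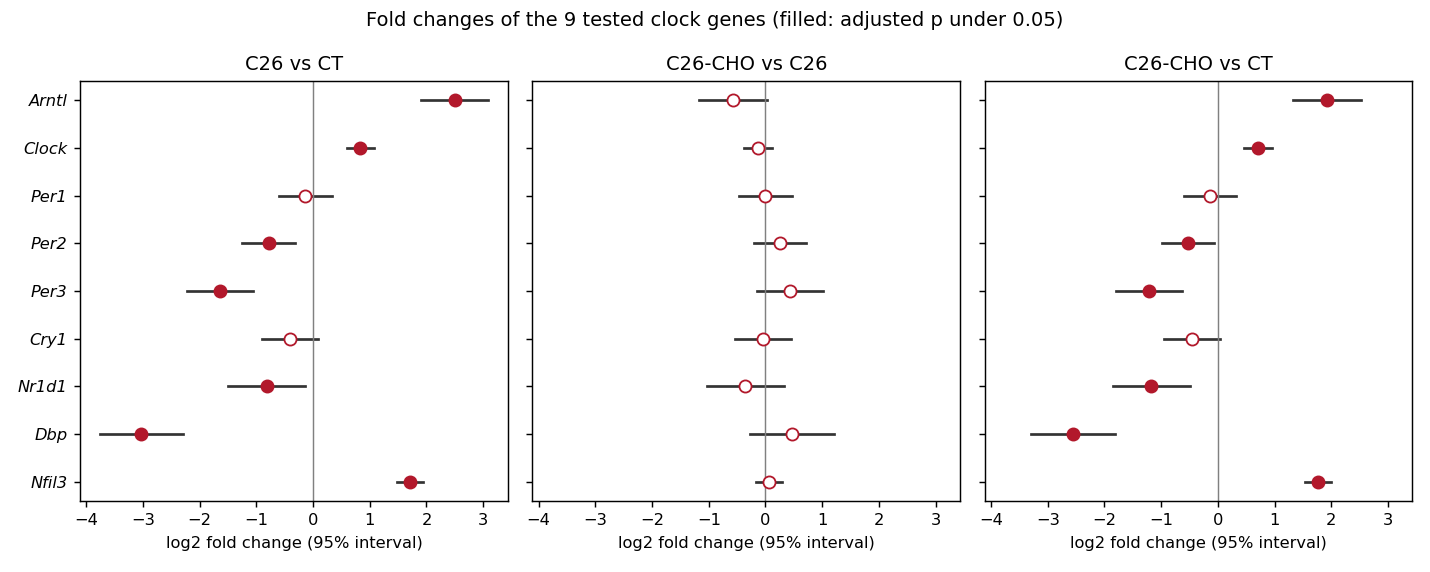
Log2 fold change with its 95% interval (limma fit over 24 livers) of the 9 tested clock genes, with 1 panel for each of the 3 comparisons; filled points have an adjusted p under 0.05. In C26-CHO vs C26 every interval crosses 0, while Arntl and Nfil3 stand to the right and Dbp and Per3 to the left in both comparisons with CT.

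Other genes of the clock network were read from 3 lists, which were chosen with earlier results of these data known. Their counts stand beside the shares of all tested genes as a description and carry no test. Of 11 other clock transcription factors and repressors 10 were tested in C26 vs CT; 2 rose and 7 fell, beside 33.3% and 32.9% of all tested genes, with a median log2 fold change of -0.82. The D-box activators Hlf (-1.32, SE 0.0946, limma adjusted p = 4.61e-12) and Tef (-1.38, SE 0.171, limma adjusted p = 9.95e-08) fell beside Dbp, so the 3 members of that family fell together. Bhlhe40, an E-box repressor also known as Dec1, fell with -1.05 (SE 0.104, limma adjusted p = 1.99e-09). Timeless, which takes part in DNA replication as well, rose with 1.27 (SE 0.102, limma adjusted p = 4.49e-11). Named after their values were seen, the E-box repressor Ciart had -1.96, Cry2 -0.84 and the RORE repressor Nr1d2 -0.80, each past the limma threshold, with adjusted p from 1.24e-06 to 5.01e-06.

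Kinases, phosphatases and ubiquitin ligases that act on clock proteins formed the second list. Of 12 tested in C26 vs CT, 2 rose and 3 fell, a smaller called share than the 66.3% of all tested genes, with a median of -0.018. Csnk2a1, a casein kinase 2 subunit, had -0.32, the cryptochrome ligase gene Fbxl21 -1.23, and the ligase subunits Btrc and Fbxw11 -0.41 and 0.25 (limma adjusted p from 2.36e-07 to 0.000172). Of 12 genes that follow the clock in liver, 10 fell and 1 rose, beside 32.9% and 33.3% of all tested genes, with a median of -1.44. The signalling regulator Rgs16 had -5.23, the uridine phosphorylase Upp2 -5.08, the deubiquitinase Usp2 -2.97 and the glycogen synthase Gys2 -2.10 (limma adjusted p from 4.19e-13 to 3.30e-11). Chosen after its value was seen, the cell cycle kinase Wee1, an E-box target, had 5.98, 17.4 and 78.6 in C26 livers, against 297, 402 and 481 in CT livers. That is a log2 fold change of -4.23 (SE 0.434, limma adjusted p = 3.68e-09). Also seen first, Tspan4 was the one that rose (1.19, adjusted p = 5.38e-10) and Nampt, the NAD synthesis enzyme, had 0.093 (adjusted p = 0.759), both by limma.

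**Figure D3:**
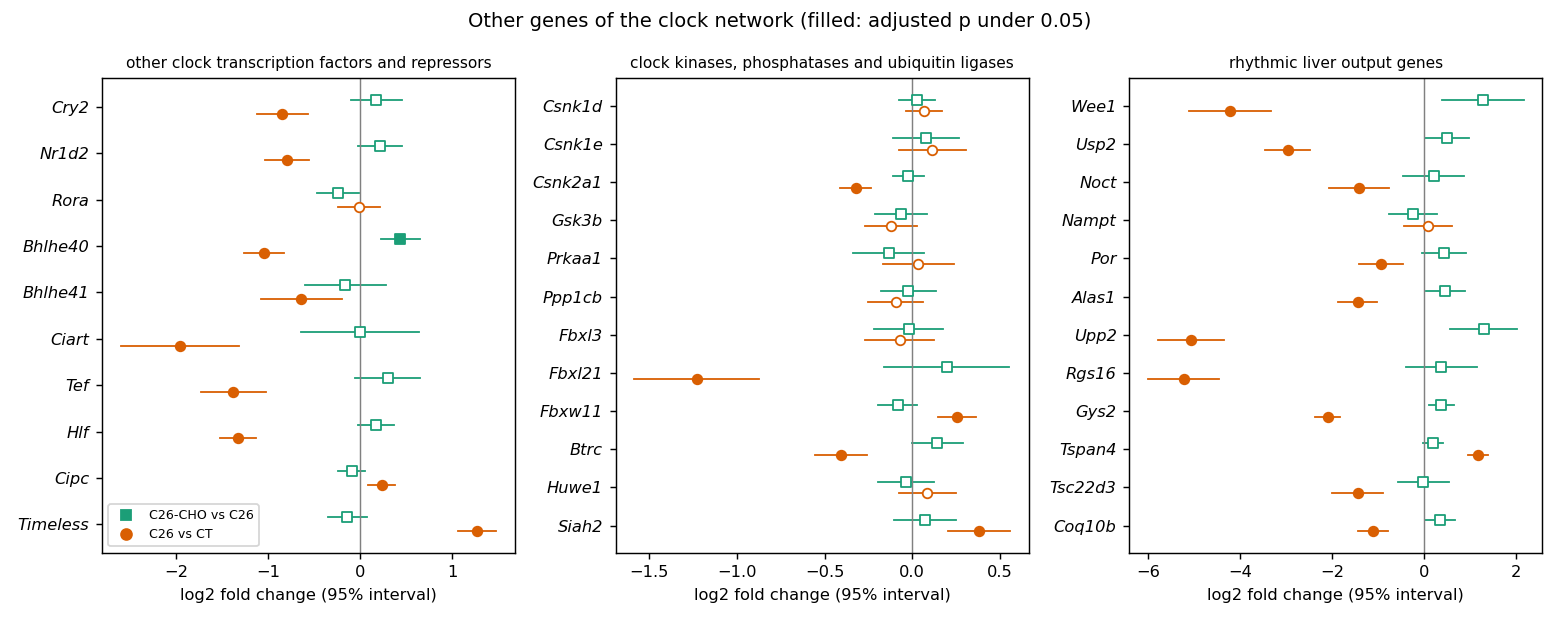
Log2 fold change with its 95% interval for the tested genes of 3 further clock lists, in C26-CHO vs C26 (green squares) and C26 vs CT (orange circles); filled symbols have an adjusted p under 0.05. The orange symbols of the output genes lie mostly left of 0, down to -5.23 in Rgs16, and Bhlhe40 is the sole filled green square.

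The C26-CHO vs C26 comparison asks whether the resin changed the clock genes of tumour-bearing mice. None of the 9 tested members was called by limma. In that fit 0 of them had an unadjusted p under 0.05, beside 1832 of all 14040 tested genes. With so few members, 0 is not set apart from that share. On the recovered reads edgeR and DESeq2 also called 0 members. Over all tested genes 0.705% were called, 0.556% higher and 0.150% lower. No member was free of overlap between C26-CHO and C26 livers, beside 0.135% of all tested genes. The intervals leave room for sizeable differences in most members, because the mice of a group differed from each other.

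Arntl had 60.3, 98.2 and 188 in C26-CHO livers, against 71.2, 147 and 348 in C26 livers. It was below the C26 mean in 7 of 8 C26-CHO livers, and 1 of them lay below every C26 liver. That mean of 177 was above the C26 median, with C26 1 and C26 3 at 326 and 348. The log2 fold change of Arntl was -0.57, with an interval from -1.17 to 0.025 (limma adjusted p = 0.413). Clock had 525.9, 651 and 810 in C26-CHO livers, against 594, 664 and 916 in C26 livers; its log2 fold change was -0.13 (interval -0.37 to 0.11, limma adjusted p = 0.708). Npas2 had 0.923, 4.09 and 7.62 in C26-CHO livers, and none showed the high values of C26 1 and C26 3.

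Per1 had 273, 1005 and 1332 in C26-CHO livers, against 644, 893 and 1146 in C26 livers. The value of 273 belonged to C26-CHO 1, and the log2 fold change was -0.0042 with this liver and 0.24 without it (limma adjusted p = 0.997 and 0.636). Per2 had 468, 810 and 1364, and Per3 298, 708 and 802, in C26-CHO livers. Their log2 fold changes against C26 were 0.26 (interval -0.20 to 0.72) and 0.43 (interval -0.15 to 1.02), with limma adjusted p of 0.683 and 0.56. Cry1 had 63.4, 156 and 254 in C26-CHO livers, with -0.052 (interval -0.55 to 0.44, limma adjusted p = 0.959). The lowest of these was C26-CHO 1, without which the log2 fold change of Cry1 was 0.12 (limma adjusted p = 0.925).

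Nr1d1 had 229, 599 and 1548 in C26-CHO livers, against 491, 633 and 1270 in C26 livers. The C26-CHO range enclosed the C26 range on both sides, with 4 livers below every C26 liver and 1 above; the log2 fold change was -0.36 (interval -1.04 to 0.32, limma adjusted p = 0.711). The liver above was C26-CHO 1, and without it the log2 fold change of Nr1d1 was -0.57 (limma adjusted p = 0.562). Dbp had 247, 333 and 1462 in C26-CHO livers, against 81.4, 374 and 562 in C26 livers. Without C26-CHO 1, which held the value of 1462, the log2 fold change of Dbp was 0.20 in place of 0.47 (limma adjusted p = 0.908 and 0.627). Nfil3 had 1027, 1189 and 1360 in C26-CHO livers, against 868, 1100 and 1603 in C26 livers. It had the narrowest interval of the members, from -0.16 to 0.28 around 0.061 (limma adjusted p = 0.881).

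Among the other clock genes, Bhlhe40 was the one called in C26-CHO vs C26. It had 1310, 1563 and 2326 in C26-CHO livers, against 966, 1221 and 1503 in C26 livers, with all 8 C26-CHO livers above the C26 mean, and rose with 0.44 (SE 0.104, limma adjusted p = 0.0449). The call was lost in 16 of 24 fits that left out 1 library (adjusted p up to 0.121, 0.0822 without C26-CHO 1), with the 2 groups alone (0.127) and in a fit with replicate blocks (0.0692). By the same limma test Rora had -0.24, Nr1d2 0.22 and Hlf 0.17 (0.099 without C26-CHO 1), with adjusted p of 0.347, 0.438 and 0.46. The kinase and ligase list had 0 of 12 members called by limma, with Btrc (0.14), Prkaa1 (-0.13), Fbxl21 (0.20, and 0.074 without C26-CHO 1) and Fbxw11 (-0.083) at adjusted p of 0.403 to 0.688. The output list also had 0 of 12 called and a median of 0.38. Upp2 had 1.30, Wee1 1.28, Alas1 0.47 and Gys2 0.39, with limma adjusted p of 0.0809, 0.165, 0.316 and 0.169; Upp2 was called without C26 8 (1.55, adjusted p = 0.0186) or without C26-CHO 2 (1.51, adjusted p = 0.0244).

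The C26-CHO vs CT comparison shares its libraries with both of the others, so its values are given beside theirs and are no separate evidence. By limma 7 of 9 tested members were called, 3 higher and 4 lower, beside 62.2% of all tested genes (31.3% higher, 30.9% lower). Arntl had 1.92 (adjusted p = 2.49e-06), Clock 0.71 (adjusted p = 1.01e-05) and Nfil3 1.77 (adjusted p = 4.03e-13). On the other side Dbp had -2.56 (adjusted p = 8.93e-07), Per3 -1.21 (adjusted p = 0.000642) and Nr1d1 -1.17 (adjusted p = 0.00333). Per2 had -0.53 and sat at the threshold (limma adjusted p = 0.0435), and its call was lost in 10 of 24 fits that left out 1 library, C26-CHO 1 among them (-0.44, adjusted p = 0.0898), and with edgeR (0.0842). Per1 had -0.14 and Cry1 -0.46, with adjusted p of 0.611 and 0.102. Without C26-CHO 1 these were 0.10 and -0.29 (adjusted p = 0.535 and 0.249), and Cry1 was called without C26-CHO 6 (-0.57, adjusted p = 0.0411). As in C26 livers, Arntl, Clock and Nfil3 were above, and Per3 and Dbp below, every CT liver in 8 of 8 C26-CHO livers; 25.2% of all tested genes did not overlap in this comparison.

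In the other lists, C26-CHO livers differed from CT livers in 1 higher and 7 lower of 10 tested transcription factors and repressors, led by Hlf (-1.15), Timeless (1.13), Tef (-1.08) and Ciart (-1.96), with limma adjusted p from 8.87e-11 to 5.53e-06. Of the kinase and ligase list 2 rose and 4 fell, among them Csnk2a1 (-0.35), Fbxl21 (-1.03), Btrc (-0.26) and Siah2 (0.46). The output list had 1 member higher, Tspan4 (1.39), and 9 lower, among them Rgs16 (-4.85), Upp2 (-3.78) and Gys2 (-1.71). These counts stand beside 31.3% of all tested genes called higher and 30.9% called lower in this comparison.

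Mice of the same group differed more in the clock genes than in most genes. The median SD of log2 values over the 9 tested members was 0.573 in C26-CHO, 0.465 in C26 and 0.341 in CT, beside 0.209, 0.177 and 0.203 over all tested genes. Nr1d1 had the largest SD in C26-CHO (0.977), above 98.4% of tested genes, and in CT (0.648), above 95.8%. In C26 the largest SDs were those of Dbp (1.03), Per3 (0.911) and Arntl (0.85), each above at least 98.7% of tested genes. Nfil3 varied little in C26-CHO, with an SD of 0.151.

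**Figure D4:**
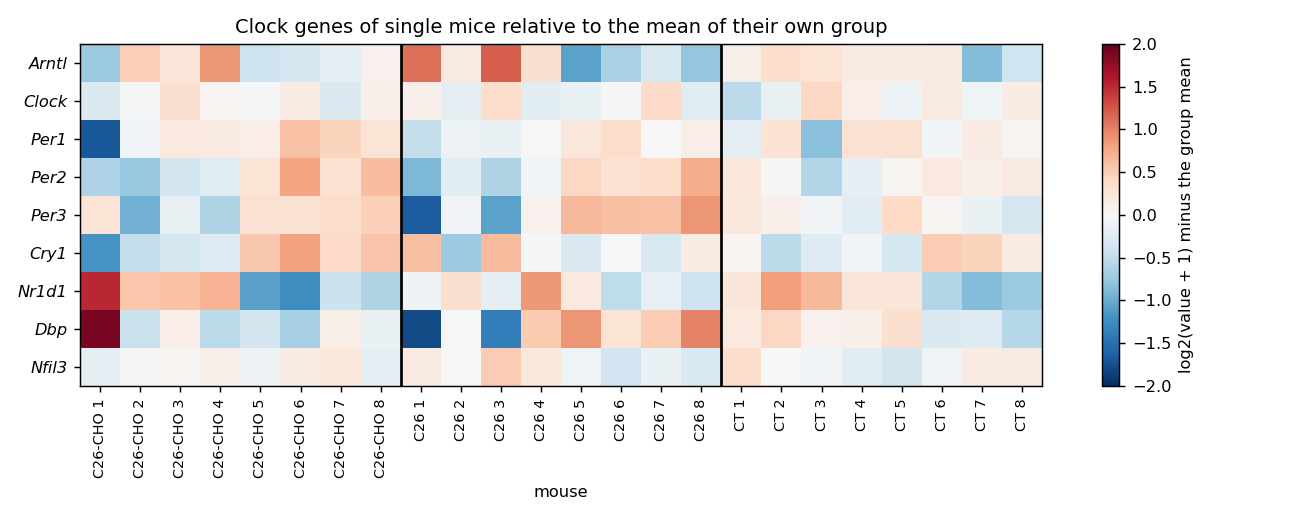
Log2 value of the 9 tested clock genes in each liver minus the mean of its own group, for C26-CHO, C26 and CT mice (red is above the mean, blue below). In C26 1 and C26 3 Arntl is red while Dbp, Per2 and Per3 are blue, and in C26-CHO 1 Nr1d1 and Dbp are red while Per1 and Cry1 are blue.

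Within the C26 group several members varied with Arntl. Arntl was related to each other member across the 8 mice of a group, which gave 27 relations over the 3 groups, tested by exact two-sided permutation with adjustment over the 27. In C26 livers Arntl ran against Per2 (Pearson r = -0.93, exact permutation p = 0.00104, adjusted p = 0.0141; Spearman rho -0.90, p = 0.00456, adjusted p = 0.0616). Per3 gave almost the same values (r = -0.93, exact permutation p = 0.00119, adjusted p = 0.0141; rho -0.93, p = 0.00223, adjusted p = 0.0603). Dbp followed (r = -0.90, exact permutation p = 0.0034, adjusted p = 0.0229; rho -0.79, p = 0.0279, adjusted p = 0.126), and then Per1 (r = -0.85, exact permutation p = 0.006, adjusted p = 0.0314; rho -0.83, p = 0.0154, adjusted p = 0.104). Nfil3 ran with Arntl (r = 0.86, exact permutation p = 0.00697, adjusted p = 0.0314; rho 0.81, p = 0.0218, adjusted p = 0.118). These 5 of the 9 relations in C26 passed by Pearson r and none by Spearman rho; Clock, Npas2, Cry1 and Nr1d1 did not pass by either.

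The C26 relations followed the mouse numbers. Arntl had 326, 172, 348 and 190 in C26 1 to C26 4, and 71.2, 96.1, 121 and 88.4 in C26 5 to C26 8. Per2 had 353, 564, 435 and 620 in the first 4 of these mice, and 876, 808, 849 and 1109 in the others. For Per3 the values were 134, 410, 204 and 453, and 669, 652, 640 and 789, again without overlap. What the numbers stand for is not given in the labels, so these relations and any order in which the mice were handled cannot be told apart.

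The mice farthest from the median of Arntl in C26 were C26 1 and C26 3. Without them Arntl still ran against Per2 (r = -0.83, exact permutation p = 0.0444) and Per3 (r = -0.88, exact permutation p = 0.0236) before adjustment. The relations with Dbp (r = -0.65, exact permutation p = 0.164), Per1 (r = -0.77, p = 0.0847) and Nfil3 (r = 0.71, p = 0.111) did not pass with the 6 remaining mice. Arntl with Npas2 in C26 (r = 0.79, exact permutation adjusted p = 0.0741) had r = 0.081 without them. Of the 6 remaining mice, C26 2 and C26 4 had higher Arntl and lower Per2 and Per3 than all of C26 5 to C26 8. The r values of Per2 and Per3 without C26 1 and C26 3 therefore cannot be told apart from the mouse numbers either.

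Outside C26, Arntl with Nr1d1 in CT passed over all 8 mice, with higher Nr1d1 where Arntl was higher (exact permutation p = 0.00156, adjusted p = 0.0141, by Spearman adjusted p = 0.104). The call was lost in 2 of 8 runs that left out 1 mouse (exact permutation adjusted p up to 0.0563). Without the 2 mice farthest from the median of Arntl the exact permutation p was 0.188. The Nr1d1 values of CT lay in 2 separate sets of mice, a reading made after the values were seen. So no pooled r is given, and each set is too small to be tested alone. In C26-CHO the Nr1d1 values also lay in separate sets; the relation with Arntl did not pass over 8 mice (exact permutation adjusted p = 0.662) and passed without C26-CHO 1 (exact permutation adjusted p = 0.0314). The same separation was seen for Dbp in CT and Per2 in C26-CHO, whose relations did not pass (exact permutation adjusted p = 0.187 and 0.623). Among the other relations outside C26 none passed over all 8 mice. Their largest r was that of Per3 in C26-CHO (r = -0.77, exact permutation p = 0.0222, adjusted p = 0.0748, rho -0.50, p = 0.216, adjusted p = 0.539), with r = -0.78 without its 2 farthest mice. Arntl with Cry1 in CT (exact permutation adjusted p = 0.26) passed in 1 of 8 runs that left out 1 mouse (exact permutation adjusted p = 0.00804). Whether the relations differ between the groups was not tested.

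**Figure D5:**
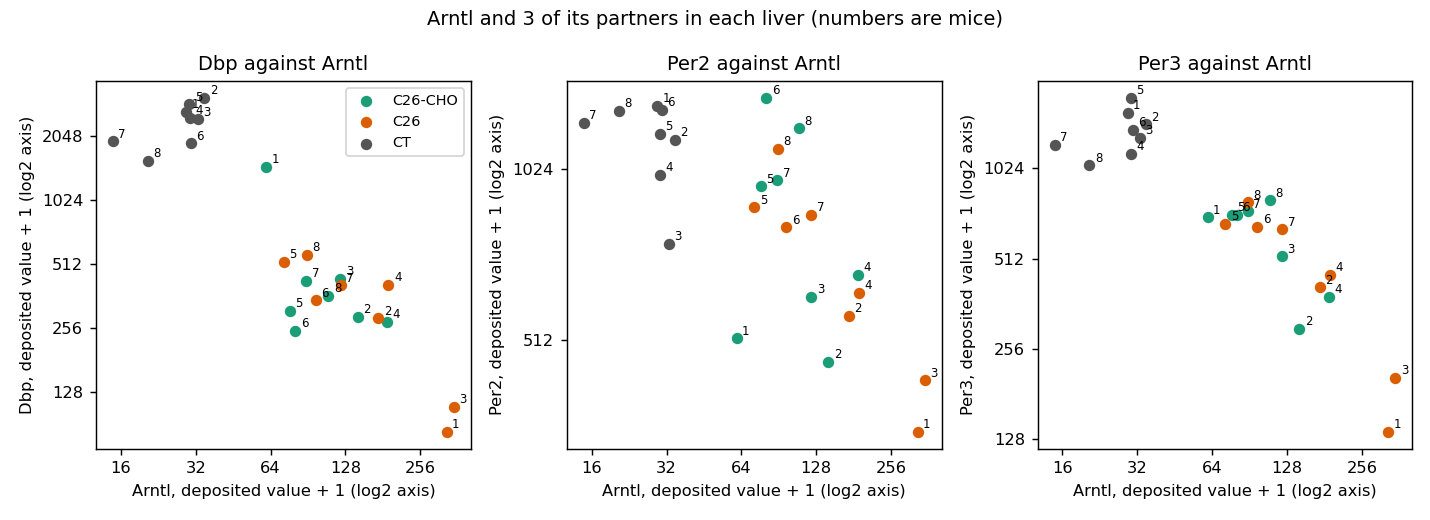
Dbp, Per2 and Per3 against Arntl in each liver, as deposited value plus 1 on log2 axes, for C26-CHO (green), C26 (orange) and CT (grey) mice; numbers are mice. The C26 points run from upper left to lower right, ending in C26 1 and C26 3 with Arntl above 325 and Dbp below 110.

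Genes outside the members were ranked by how closely they followed Arntl and Dbp over the 24 livers after the mean of each group was removed, among 10513 candidates with a mean value of at least 50. Arntl was most like Tab2 (r = 0.87), Lnx2 (0.87), Abhd17c (0.84), Dpp9 (0.84) and Tspan14 (0.84). Dbp was most like Cry2 (r = 0.83), Shpk (0.82), Uox (0.81), Vdac1 (0.80) and L3hypdh (0.80). The likeness to Uox was absent in CT, with r = 0.087 there, 0.87 in C26-CHO and 0.86 in C26. The livers include C26-CHO 1, whose Dbp value stood far from its group, and no r without it is given. On the same group-centred measure Arntl had r = -0.76 with Per3 and -0.63 with Dbp, and Dbp had 0.75 with Per3 and -0.66 with Cry1. These r values describe 24 livers that share group and library, and carry no test. The negative r of Arntl with Per3 and Dbp did not hold in every group. Within C26 alone these were -0.93 and -0.90, and within C26-CHO -0.77 and -0.56. Within CT alone Arntl ran with Per3 (r = 0.46) and also with Dbp, whose CT values lay in separate sets of mice. Cry2, itself a clock repressor and seen first, fell in C26 vs CT (-0.84, limma adjusted p = 5.01e-06), had 0.17 in C26-CHO vs C26 (adjusted p = 0.636) and -0.67 in C26-CHO vs CT (adjusted p = 0.00012).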

How the data were processed

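Liver RNA libraries of 24 mice were analysed. Per the submitters' processing notes, the tools were bcl2fastq 2.17, FastQC, Trimmomatic 0.38, the aligner STAR 2.6.1d and DESeq2 1.22.2, and the build was GRCm38. How reads were counted, on which annotation and with or without strand, is not given in the sources used here. The authors deposited a normalized signal, the count of a gene divided by a size factor of the library. In each column the values were whole multiples of 1 step (100% of values, tolerance 0.001 of a read), so reads were recovered; no gene had fewer than 5 reads in all.

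Log2(value + 1) of the 14040 genes with a mean of at least 10 was fitted with limma 3.58.1 in R 4.3.3 (eBayes with a trend), with all 24 libraries in one fit and no covariate, and Benjamini-Hochberg adjustment over all tested genes of a comparison; a gene was called under 0.05. The fit was tested on simulated data. Alternatives used edgeR 4.0.16, DESeq2 1.42.0, other scalings, pseudocounts, filters and sets of libraries. Nothing in the labels says that same-numbered mice belong together, so the replicate number entered only an alternative. Coordinates and exon lengths come from GENCODE M21 on GRCm38, and promoters from RefSeq. Correlations used exact permutation in numpy 2.4.6. The limma p-values set a difference between group means against the spread between mice, estimated over the 3 groups together. The permutation p-values set an observed r against r over all pairings of the mice of a group. A gap of at least the range divided by 3, with at least 3 mice on each side, a rule set after the values were seen, marked separate sets of mice.

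Genes named are the members, up to 4 genes with the smallest p of each list in each comparison and the 5 genes most like Arntl and Dbp; others are said to be seen first. A gene of the clock network was left out of the lists and is not reported here. The members and lists were chosen with earlier results of these data known.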

Additional observations from a re-analysis of the deposited data

Results flagged for a closer look

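The 10 members in the 3 groups gave 30 sets of 8 values, and in 3 of them 1 liver stood far from the rest, with a gap to its neighbour above 0.526 of the range of log2 values; chance alone does so in about 1 in 20 sets. In C26-CHO livers Per1 was lowest in C26-CHO 1, at 273 where the next liver had 841 (gap 0.71 of the range). In the same group Dbp was highest in C26-CHO 1, at 1462 where the next liver had 433 (gap 0.684 of the range). In CT livers Per1 was lowest in CT 3, at 546 where the next had 853 (gap 0.56 of the range). C26-CHO 1 is also the liver with the lowest value of its group on the first principal component, at -13.4.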

How the results depend on the processing

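In C26 vs CT the number of called genes lay between 9049 and 10509 under all alternatives and that of called members between 6 and 8; in C26-CHO vs CT these were 8428 to 9492 and 6 to 8. In C26-CHO vs C26 no alternative called a member, while the number of called genes, 99 in the limma fit, was 10 with the 2 groups alone, 327 with DESeq2, 117 with edgeR and 23 to 273 when 1 library was left out; the cause was not tested. With the replicate number as a block 9643, 97 and 9079 genes were called in the 3 comparisons. Deviations of same-numbered mice correlated with r from -0.204 to 0.255, over 0.1 in 3, 2 and 4 of 8 pairs, and a mouse was closest to its own number in 2, 1 and 2 of 8; apart from Bhlhe40, the block changed no call of a gene named for the comparison but Rora, not called in C26-CHO vs CT (-0.25, adjusted p = 0.0506) and called with it (adjusted p = 0.0058). The call of Per2 in C26-CHO vs CT was also lost without the filter (0.0531), under quantile normalization (0.0693) and with DESeq2 (0.0604). Values near 0 changed sign: Per1 in C26-CHO vs C26 had 0.092 with edgeR and with DESeq2 and -0.087 to 0.24 with 1 library left out, and in C26-CHO vs CT -0.26 to 0.10; Cry1 in C26-CHO vs C26 had 0.0072 with DESeq2 and -0.17 to 0.12; Nampt in C26 vs CT had -0.0014 to 0.20. With 1 C26 liver left out, r of Arntl with Per2 and Per3 stayed between -0.955 and -0.912 and kept its call, while that of Dbp (-0.959 to -0.85), Per1 (-0.902 to -0.806) and Nfil3 (0.783 to 0.934) lost it without 6, 6 and 7 of the 8 livers. No scaling moved the median of all genes by over 0.1. Npas2, with 24 reads over all CT livers, is limited by depth.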

Other observations

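In the C26-CHO group, as in C26, several clock genes separated mice 1 to 4 from mice 5 to 8. Nr1d1 had 256, 229, 400 and 357 in C26-CHO 5 to C26-CHO 8, while it had 1548, 797, 814 and 882 in C26-CHO 1 to C26-CHO 4. Per2 had 954, 1364, 977 and 1205 in the first of these livers and 516, 468, 609 and 667 in the others, in the same order. Cry1 had 211, 254, 190 and 217, and 63.4, 103, 113 and 121. The livers are set out this way because their values were seen, so no test is given. The labels separate them by mouse number and do not say what the number stands for.

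C26 1 and C26 3 stood at one end of the C26 group in Arntl, Npas2, Per2, Per3 and Dbp. Wee1, an E-box target, had 12.1 and 5.98 there. The output gene Upp2 had 116 in C26 1 and 244 in C26 3, where C26 2 had 195. C26 8, with the highest Per2, Per3, Dbp and Wee1 of the group, had a Wee1 value of 78.6 and a Upp2 value of 1234.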
